A study of Mus musculus with 8 samples.

Results

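The potassium channel genes of the mouse were followed through the neuron and glia types of 2 brain regions at 2 ages. The set was every gene symbol that starts with Kcn, continues with letters and ends in a number, apart from names of antisense or overlapping transcripts and of Riken clones. It held 93 of the 32285 genes counted. Single nuclei came from punches of the anterior hippocampus and of the caudate putamen (the striatum's dorsal part), both from the left hemisphere of C57BL/6JN mice, which are untreated wild-type inbred mice. There were 4 groups of 2 libraries, one group for each region at 3 months (young) and at 21 months (old) of age. Each library was a pool of equal numbers of sorted nuclei from 1 male and 1 female of the same age, made with the 10x Genomics v3.1 chemistry, so the sexes are not separated here. The labels do not name the animals or say which libraries were prepared together. P-values for age and region within a class measure the spread between 2 pools a group, in glia with all groups fitted together. Those of comparisons between classes measure how the class differences vary between libraries.

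Depth and cell types were as follows. The 8 libraries held 67205436 to 234811422 unique molecular identifiers (UMIs, counts of captured RNA molecules), and 99490 of 109826 barcodes were retained, with median depths of 6609.5 to 11247 UMIs a nucleus. The second young hippocampal library stood apart: it held the most UMIs and barcodes (20274), though not the highest median depth. In it 13.8% of nuclei received no name (between 7.32% and 11.7% in the other hippocampal libraries). At its barcode number 16.2% doublets (nuclei sharing a barcode) were expected and 4.93% called, at a score threshold of 0.482 (0.237 to 0.291 elsewhere). Some of the unnamed clusters with markers of another lineage came mostly from it, such as 661 of 751 and 220 of 247 nuclei, and others did not. Whether doublets remained in its classes was not tested. Of 108303 barcode sequences, 1472 occurred in 2 or more libraries, at most 0.774% of the smaller of 2 libraries. Clusters of nuclei were named from marker genes, none of which is a potassium channel gene, and the channel genes were left out of the clustering. The summed level of 6 dentate granule markers was 1136 to 1279.8 CPM (a gene's UMIs scaled to a common total within each class and library) in dentate granule-like nuclei, and that of 7 medium spiny neuron markers 8693 to 10182 CPM in D1-like nuclei. A class was used with at least 20 nuclei in every library of its region, which left 11 hippocampal classes and 10 in the caudate putamen. Oligodendrocyte clusters that the naming rule kept out, with most of their nuclei in clusters high in Enpp6, made up, of the nuclei of a library, 1.84% and 2.56% (young) and 3.00% and 2.74% (old) in the hippocampus and 8.61% and 7.51% (young) and 14.6% and 8.94% (old) in the caudate putamen. An eccentric cluster kept out held 1.16% to 1.47%.

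A potassium channel lets potassium ions through the cell membrane along their gradient. Voltage-gated (Kv) channels open on depolarization and shape the height, width and rate of action potentials, and their families differ in where along the neuron they sit and how fast they inactivate. Calcium-activated channels follow spikes and set the pauses between them, inward rectifiers and two-pore channels set the resting potential, and in astrocytes and oligodendrocytes inward rectifiers take up potassium that active axons release.

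Channel genes were measured broadly but few were high. In at least 1 class, 62 of the 93 genes reached 10 CPM, 38 reached 100 CPM and 11 reached 1000 CPM, while 11 stayed under 1 CPM in every class. Summed over the 93 genes, the level was 35293 ± 2948 CPM (mean ± SD over the 4 libraries of a region, both ages, as for all levels below) in subiculum- or cortex-like excitatory neurons, 33633 ± 3174 CPM in CA1-like, 26470.2 ± 1236 CPM in dentate granule-like and 22370.0 ± 741 CPM in D1-like neurons. In oligodendrocyte precursor-like nuclei of the hippocampus it was 12184 ± 489 CPM, and in astrocyte-like nuclei 4646 ± 584 CPM. One gene, Kcnip4, held much of the neuronal sum: without it the dentate granule-like sum was 13265 ± 177 CPM. Of the 59 genes at 10 CPM or more in a hippocampal class, 35 were highest in a neuron class. In the caudate putamen 31 of 60 were highest in a neuron class. The same counts over all genes are not given here, so these are not read as a trait of channel genes.

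Each class was then compared with the mean of the other classes of its region. Counts were summed per class and library and tested with edgeR's quasi-likelihood test with library as a block, and a call needed an adjusted p under 0.05 (Benjamini-Hochberg over all genes tested) and a log2 fold change of at least 1 in size. In hippocampal neurons the channel genes called were 51 of 72 (26.4% of all genes) in dentate granule-like nuclei, 38 of 72 (27.7% of all genes) in CA1-like nuclei, 37 of 72 (28.5% of all genes) in CA3-like nuclei, 43 of 72 (24.9% of all genes) in subiculum- or cortex-like nuclei and 33 of 72 (23.0% of all genes) in interneuron-like nuclei, with the share of all genes called in either direction in brackets. In the other hippocampal classes they were 50 of 72 (31.3% of all genes) in oligodendrocyte-like, 32 of 72 (19.4% of all genes) in precursor-like, 50 of 72 (31.2% of all genes) in astrocyte-like, 40 of 72 (31.1% of all genes) in microglia-like, 43 of 72 (34.2% of all genes) in endothelial-like and 29 of 72 (21.6% of all genes) in vascular leptomeningeal-like nuclei. In caudate putamen neurons they were 39 of 71 (29.1% of all genes) in D1-like, 41 of 71 (28.5% of all genes) in D2-like, 41 of 71 (26.4% of all genes) in eccentric medium spiny-like and 41 of 71 (25.4% of all genes) in interneuron-like nuclei. In the other caudate putamen classes they were 37 of 71 (26.6% of all genes) in oligodendrocyte-like, 37 of 71 (21.5% of all genes) in precursor-like, 41 of 71 (29.7% of all genes) in astrocyte-like, 42 of 71 (33.0% of all genes) in microglia-like, 21 of 71 (23.6% of all genes) in endothelial-like and 29 of 71 (18.3% of all genes) in pericyte-like nuclei. The share of channel genes called was above that of all genes in 21 of the 21 classes. In dentate granule-like nuclei 39 of those called were higher than in the other classes and 12 lower, and in oligodendrocyte-like nuclei of the hippocampus 9 were higher and 41 lower.

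Neuron markers were also counted in glia, which bears on every low level given for a glial class. The 6 dentate granule markers stood in the hippocampal glial classes at a median of 31.3% (oligodendrocyte-like), 17.9% (precursor-like), 11.8% (astrocyte-like) and 27.9% (microglia-like) of their level in dentate granule-like nuclei. The 7 medium spiny neuron markers stood at 16.3%, 14.2%, 9.46% and 19.5% of their D1-like level in the same 4 classes of the caudate putamen. The highest single marker stood at 122%, 71.0%, 80.5% and 113% in these hippocampal classes. In those of the caudate putamen it stood at 242%, 126%, 142% and 283%. How much of these levels was RNA from neurons was not tested. A channel gene whose glial level was a similar or smaller share of its neuronal level is not described as a glial gene here.

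**Figure D1:**
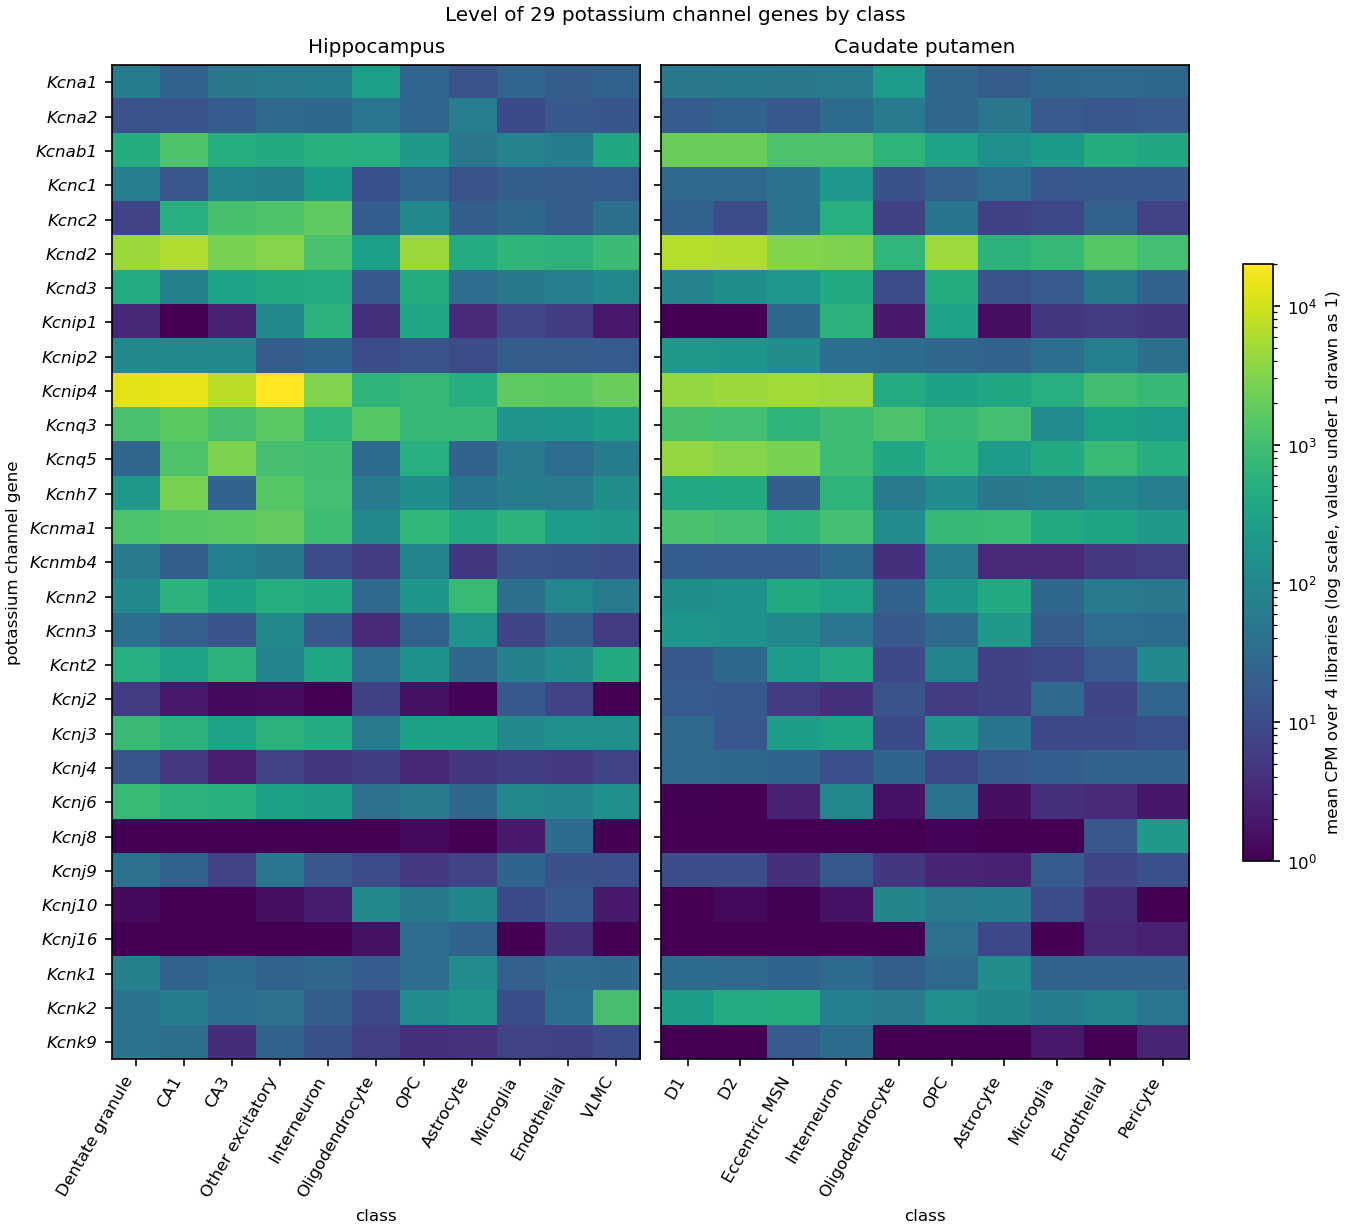
Colour gives the mean CPM over 4 libraries (log scale, values under 1 drawn as 1) of 29 channel genes (rows) in 11 hippocampal and 10 caudate putamen classes (columns). Kcnip4 and Kcnd2 are bright in all neuron columns, Kcnq5 is dark in dentate granule-like nuclei (26.0 CPM) and bright in D1-like nuclei (4071 CPM), and Kcnj10 is brightest in the oligodendrocyte, astrocyte and precursor columns of both regions.

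Kv4 channels and their partner subunits carry the fast transient current of neurons. Kcnd2 (ENSMUSG00000060882, chromosome 6, 21215503 to 21729805, 514 kb, GRCm38) encodes the pore of the dendritic A-type current, which limits how far action potentials spread back into dendrites. Its level was 6149 ± 444 CPM in CA1-like, 4546 ± 151 in dentate granule-like, 3362 ± 325 in subiculum- or cortex-like, 2605 ± 214 in CA3-like and 1146 ± 237 in interneuron-like nuclei. In precursor-like nuclei it was 4530.3 ± 288 CPM, so that precursors overlapped the dentate granule level, and it was between 266 and 844 CPM in the other 5 classes. Kcnd2 in the caudate putamen was 6559.7 ± 77.3 CPM in D1-like and 6192 ± 63.3 in D2-like neurons, whose library values did not overlap, and 3189 ± 81.0, 2999 ± 304 and 4627 ± 179 CPM in eccentric, interneuron-like and precursor-like nuclei. Elsewhere in that region it was between 601 and 1478 CPM in the other 5 classes. Kcnd2 was higher in CA1-like than in the other hippocampal classes (log2 fold change 2.77, SE 0.24, adjusted p = 1.66e-13, edgeR) and higher in D1-like than in the other caudate putamen classes (log2 fold change 2.41, SE 0.14, adjusted p = 7.23e-20).

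Kcnd3, the second Kv4 pore, had another pattern. It was at 454 ± 27.4 CPM in hippocampal precursor-like, 440.2 ± 20.3 in dentate granule-like, 438 ± 66.6 in interneuron-like, 405 ± 83.0 in subiculum- or cortex-like and 307 ± 21.4 in CA3-like nuclei, but at 74.2 ± 18.1 in CA1-like nuclei and between 15.2 and 103 CPM in the other 5 classes. The first 4 of these overlapped over the libraries. CA3-like nuclei exceeded CA1-like nuclei (log2 fold change 2.13, SE 0.29, adjusted p = 3e-07). Kcnd3 in the caudate putamen was at 464 ± 39.6 CPM in precursor-like, 426 ± 76.5 in interneuron-like, 193 ± 51.8 in eccentric, 141 ± 16.5 in D2-like and 80.1 ± 10.2 in D1-like nuclei, and between 9.47 and 53.9 CPM in the other 5 classes. The third pore, Kcnd1, was low everywhere and highest in microglia-like nuclei, at 19.0 ± 8.46 CPM in the hippocampus and 20.9 ± 5.50 CPM in the caudate putamen (log2 fold change 2.74, SE 0.25, adjusted p = 1.92e-12 in the hippocampus).

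The KChIP genes encode calcium-binding subunits that carry Kv4 channels to the membrane and slow their inactivation. Kcnip4 (ENSMUSG00000029088, chromosome 5, 48389502 to 49524907, 1135 kb) reached 19628 ± 2727 CPM in subiculum- or cortex-like, 14123 ± 2093 in CA1-like, 13205 ± 1195 in dentate granule-like, 7212 ± 583 in CA3-like and 3109 ± 599.9 in interneuron-like nuclei, and was between 477 and 2116 CPM in the other 6 classes. The caudate putamen neurons held 5071 ± 598 (eccentric), 4628 ± 395 (interneuron-like), 4575 ± 351 (D2-like) and 3957 ± 458 CPM (D1-like), which overlapped one another in part, and it was between 292 and 997 CPM in the other 6 classes. Kcnip1 went with interneurons and precursors. It stood at 581 ± 43.1 CPM in hippocampal interneuron-like, 333 ± 67.5 in precursor-like and 116 ± 35.2 in subiculum- or cortex-like nuclei and between 0.925 and 8.09 CPM in the other 8 classes. For Kcnip1 in the caudate putamen the interneuron-like level was 601 ± 31.7, the precursor-like level 318 ± 30.0 and the eccentric level 28.8 ± 16.6 CPM, against 0.821 and 0.899 CPM in D1-like and D2-like neurons, and it was between 1.46 and 5.57 CPM in the other 5 classes. Hippocampal interneuron-like nuclei exceeded the other classes in Kcnip1 (log2 fold change 6.46, SE 0.12, adjusted p = 7.06e-32).

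Kcnip2 was highest in the medium spiny neuron classes of the caudate putamen and in 3 excitatory classes of the hippocampus. It was at 202 ± 15.6 CPM in D1-like, 186 ± 13.2 in D2-like and 127 ± 8.46 in eccentric nuclei, 37.4 ± 10.3 in interneuron-like nuclei and between 23.5 and 71.2 CPM in the other 6 classes. The hippocampal levels in dentate granule-like (113 ± 15.0 CPM), CA1-like (112 ± 5.86) and CA3-like (110.0 ± 13.3) nuclei did not differ beyond their spread, and it was between 9.58 and 24.4 CPM in the other 8 classes. Kcnip3, which is also known as a calcium-dependent repressor of transcription, was highest in precursor-like nuclei of both regions, at 773 ± 105 and 759 ± 120.0 CPM (log2 fold change 3.46, SE 0.11, adjusted p = 3.42e-27 in the hippocampus, log2 fold change 3.49, SE 0.08, adjusted p = 1.13e-32 in the caudate putamen).

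Kv1 genes include delayed rectifiers of axons, and here Kcna1 and Kcna6 were highest in oligodendrocytes. Kcna4 was higher in neurons, at 38.8 CPM in the highest hippocampal neuron class and 7.32 CPM in oligodendrocyte-like nuclei. In the caudate putamen these levels were 106 and 34.3 CPM. Kcna1 was at 264 ± 20.4 CPM in hippocampal oligodendrocyte-like nuclei, against 67.2 ± 5.61 in interneuron-like, 63.1 ± 3.66 in dentate granule-like, 59.9 ± 4.25 in subiculum- or cortex-like and 51.1 ± 4.38 CPM in CA3-like nuclei, and was between 13.2 and 25.5 CPM in the other 6 classes. For Kcna1 in the caudate putamen the oligodendrocyte-like level was 233 ± 23.4 CPM and the level was between 18.7 and 56.6 CPM in the other 9 classes. Kcna6, whose gene lies 61.9 kb from Kcna1 on chromosome 6, was at 226 ± 7.80 and 185 ± 15.0 CPM in the oligodendrocyte-like nuclei of the hippocampus and caudate putamen. The oligodendrocyte-like classes exceeded the others in Kcna1 (log2 fold change 3.03, SE 0.11, adjusted p = 1.41e-23 in the hippocampus and 2.64 in the caudate putamen) and in Kcna6 (log2 fold change 3.87, SE 0.09, adjusted p = 1.23e-32 in the hippocampus and 3.40 in the caudate putamen). Kcna2, which pairs with Kcna1 beside the node of Ranvier, was highest in astrocyte-like nuclei of the hippocampus at 69.4 ± 7.18 CPM, above every library of the oligodendrocyte-like nuclei at 48.8 ± 3.58 CPM, and was between 9.17 and 31.0 CPM in the other 9 classes. For Kcna2 in the caudate putamen the oligodendrocyte-like (57.6 ± 8.37 CPM) and astrocyte-like (50.7 ± 2.81 CPM) levels overlapped, and it was between 15.0 and 32.8 CPM in the other 8 classes.

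Kv beta subunits bind Kv1 channels in the cytoplasm. Kcnab1 was at 1317 ± 129 CPM in CA1-like nuclei, at 532 ± 26.9 in interneuron-like, 504.2 ± 104 in oligodendrocyte-like, 471 ± 71.2 in CA3-like, 454 ± 11.6 in dentate granule-like and 434 ± 14.5 in subiculum- or cortex-like nuclei, and between 50.8 and 382 CPM in the other 5 classes. Kcnab1 in the caudate putamen was at 2198 ± 156 CPM in D2-like and 2112 ± 146 in D1-like nuclei, which overlapped, then 1269.7 ± 204 in interneuron-like, 1246 ± 93.2 in eccentric and 624 ± 76.5 in oligodendrocyte-like nuclei, and between 146 and 467 CPM in the other 5 classes. Kcnab2 was highest in CA1-like nuclei too, at 189 ± 14.2 CPM against 137 ± 9.74 in CA3-like and 113 ± 7.02 in dentate granule-like nuclei. Both exceeded the other hippocampal classes in CA1-like nuclei (log2 fold change 2.83, SE 0.13, adjusted p = 1.48e-21 for Kcnab1, log2 fold change 3.01, SE 0.15, adjusted p = 7.85e-19 for Kcnab2).

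Kv2 channels carry much of the delayed rectifier of the cell body, and the silent Kv genes make subunits that conduct only together with Kv2. Kcnb2 was at 1183 ± 117 CPM in CA3-like nuclei (log2 fold change 2.78, SE 0.19, adjusted p = 1.49e-15) and at 1064 ± 38.0 CPM in CA1-like nuclei, which overlapped. Among the hippocampal classes, the silent subunit genes Kcng1, Kcng2 and Kcng3 marked dentate granule-like nuclei. In the highest neuron class of the caudate putamen Kcng3 was at 23.1 CPM, above its dentate granule-like level, and Kcng2 at 2.29 CPM. The level of Kcng1 in D1-like nuclei is given below. Kcng2 was at 65.8 ± 6.24 CPM there against 30.4 ± 6.55 in CA3-like and 11.0 ± 1.85 in CA1-like nuclei (log2 fold change 3.09, SE 0.15, adjusted p = 3.79e-19 against all others). Kcng1 was at 29.0 ± 2.62 and Kcng3 at 14.7 ± 3.28 CPM in that class, with log2 fold changes of 2.85 and 3.08 against the others. Kcns3, another silent subunit, was at 141 ± 23.8 CPM in hippocampal and 48.1 ± 12.6 CPM in caudate putamen interneuron-like nuclei (log2 fold change 6.05, SE 0.17, adjusted p = 1.89e-27 in the hippocampus). Within those of the caudate putamen it was at 1.29 ± 0.575 CPM in cholinergic-like nuclei, a subclass with at least 19 nuclei a library, and at 57.5 ± 17.8 CPM in the other interneuron-like clusters. Kcnf1, a further silent subunit, was low everywhere, and its hippocampal level of 5.94 ± 1.05 CPM in subiculum- or cortex-like nuclei was above every library of the other classes (log2 fold change 2.19, SE 0.20, adjusted p = 8.75e-13).

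Kv3 channels close fast enough to let neurons fire at high rates. Kcnc1 and Kcnc2 were highest in interneuron-like nuclei of both regions. Kcnc1 was at 221 ± 17.4 CPM in hippocampal interneuron-like nuclei, 88.0 ± 5.34 in CA3-like, 77.7 ± 18.7 in subiculum- or cortex-like and 68.4 ± 2.48 in dentate granule-like nuclei, and between 12.1 and 25.1 CPM in the other 7 classes. Kcnc1 in the caudate putamen was at 199.6 ± 12.5 CPM in interneuron-like nuclei and between 11.8 and 45.5 CPM in the other 9 classes. Within the interneurons it was at 55.0 ± 7.76 CPM in cholinergic-like nuclei and at 228 ± 24.1 CPM in the other clusters. Kcnc2 split the excitatory neurons of the hippocampus. It was at 1777 ± 324 CPM in interneuron-like and 1302 ± 506 in subiculum- or cortex-like nuclei, which overlapped, 1106 ± 113 in CA3-like and 488 ± 47.3 in CA1-like nuclei but at 7.47 ± 2.67 CPM in dentate granule-like nuclei, with 116 ± 39.9 in precursor-like nuclei and between 18.5 and 38.6 CPM in the other 5 classes. CA3-like exceeded dentate granule-like nuclei (log2 fold change 7.39, SE 0.41, adjusted p = 1.85e-18). Kcnc2 in the caudate putamen was at 517 ± 111 CPM in interneuron-like nuclei and between 6.89 and 46.6 CPM in the other 9 classes. Kcnc4 ran the other way in the hippocampus, at 35.6 ± 1.45 CPM in dentate granule-like against 1.76 ± 0.966 in CA1-like and 1.04 ± 1.06 in CA3-like nuclei (log2 fold change -4.22, SE 0.28, adjusted p = 7.39e-16 for CA1-like).

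Kv7 channels carry the M-current, a slow brake on repeated firing that muscarinic receptors switch off. Kcnq5 (ENSMUSG00000028033, chromosome 1, 21398403 to 21961942, 564 kb) had one of the widest ranges. It was at 2955 ± 96.7 CPM in CA3-like, 1317 ± 249 in CA1-like, 1085 ± 380.1 in subiculum- or cortex-like, 986 ± 134 in interneuron-like and 493 ± 48.2 in precursor-like nuclei, but at 26.0 ± 9.27 CPM in dentate granule-like nuclei and between 22.6 and 63.3 CPM in the other 5 classes. CA3-like nuclei exceeded dentate granule-like nuclei (log2 fold change 7.05, SE 0.35, adjusted p = 2.53e-20). Medium spiny neurons of the caudate putamen were high, at 4071 ± 325 (D1-like), 3261 ± 336 (D2-like) and 2742 ± 211 CPM (eccentric), with 930.0 ± 209 in interneuron-like nuclei and between 236 and 815 CPM in the other 6 classes. Kcnq3 was spread over neurons and macroglia: 1662 ± 192 CPM in CA1-like, 1584 ± 214 in subiculum- or cortex-like, 1471 ± 181 in oligodendrocyte-like, 1145 ± 48.2 in dentate granule-like and 1087 ± 73.3 in CA3-like nuclei, and between 172 and 763 CPM in the other 6 classes. Kcnq3 in the caudate putamen was at 1282 ± 175 in oligodendrocyte-like, 1114 ± 47.1 in D1-like, 1053 ± 52.4 in astrocyte-like and 1035 ± 74.0 CPM in D2-like nuclei, which overlapped in part, and between 119.5 and 911 CPM in the other 6 classes. Cholinergic-like interneurons held 390.4 ± 23.4 CPM of Kcnq3 and the other interneuron clusters 1011 ± 62.2 CPM.

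Kcnq1, known from the heart and epithelia, was highest in endothelial-like nuclei, at 64.6 ± 22.0 CPM in the hippocampus and 49.2 ± 17.6 in the caudate putamen (log2 fold change 5.18, SE 0.22, adjusted p = 9.72e-24 and log2 fold change 5.25, SE 0.34, adjusted p = 7.04e-18), against at most 6.14 CPM in another of these classes. The Kcne genes, whose small proteins modify Kv7 channels, summed to under 1 CPM in CA1-like nuclei (0.33 ± 0.196 CPM for 5 genes).

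The EAG, ERG and ELK families open at or below the firing threshold. Kcnh7, an ERG gene, was at 2583 ± 361 CPM in CA1-like, 1476 ± 137 in subiculum- or cortex-like and 1028 ± 200.1 in interneuron-like nuclei, at 206 ± 43.4 in dentate granule-like and 141 ± 24.7 in precursor-like nuclei, and at 23.7 ± 19.1 CPM in CA3-like nuclei. It was between 46.6 and 134 CPM in the other 5 classes. CA3-like nuclei were lower than CA1-like nuclei (log2 fold change -6.92, SE 0.41, adjusted p = 2.32e-17), the largest difference among the channel genes of that pair. Kcnh7 in the caudate putamen was at 617 ± 88.2 CPM in interneuron-like, 411 ± 16.0 in D2-like, 389 ± 30.3 in D1-like, 119 ± 19.0 in precursor-like and 19.7 ± 4.69 in eccentric nuclei and between 51.4 and 108 CPM in the other 5 classes. The eccentric level was below every library of the other classes (log2 fold change -2.45, SE 0.17, adjusted p = 3.32e-16), a call that reversed with coarser clusters. Kcnh8 and Kcnh5 were higher in precursor-like nuclei than in any neuron class: Kcnh8 was at 485 ± 95.6 and 466 ± 42.9 CPM in precursor-like nuclei of the 2 regions (log2 fold change 7.06, SE 0.17, adjusted p = 2.32e-28 in the hippocampus), and Kcnh5 at 255 ± 50.6 and 196 ± 42.0 CPM. Kcnh8 was also among the leading genes of a subiculum- or cortex-like cluster of 311 hippocampal nuclei, in a class with 79.7 CPM. Kcnh4 was high in medium spiny neurons, at 73.9 ± 6.45 CPM in D1-like and 71.4 ± 5.63 in D2-like nuclei.

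Calcium- and sodium-activated channels came next. Kcnma1, the BK pore, was at 1888 ± 74.7 CPM in subiculum- or cortex-like, 1603 ± 57.2 in CA3-like, 1441 ± 49.5 in CA1-like, 1199 ± 47.5 in dentate granule-like, 912 ± 22.8 in interneuron-like and 715 ± 56.2 in precursor-like nuclei and between 98.9 and 593 CPM in the other 5 classes. Kcnma1 in the caudate putamen was at 1146 ± 58.7, 1026 ± 155 and 1020.3 ± 43.6 CPM in D1-like, interneuron-like and D2-like nuclei, 787 ± 66.3 in astrocyte-like and 748 ± 35.8 in precursor-like nuclei and between 120.4 and 624 CPM in the other 5 classes. Its accessory subunits divided by class. Kcnmb2, which makes the channel inactivate, was at 1157 ± 103 CPM in hippocampal interneuron-like nuclei against 32.3 CPM in the next class (log2 fold change 8.47, SE 0.13, adjusted p = 4.67e-35) and at 296 ± 54.5 CPM in those of the caudate putamen (log2 fold change 7.61, SE 0.08, adjusted p = 3.05e-48). Kcnmb4 was at 82.5 ± 11.3 CPM in precursor-like, 71.9 ± 7.09 in CA3-like, 60.1 ± 3.97 in dentate granule-like and 54.0 ± 7.28 in subiculum- or cortex-like nuclei but 20.2 ± 2.58 in CA1-like nuclei, and between 5.07 and 13.4 CPM in the other 6 classes. Kcnmb4 in the caudate putamen was at 68.5 ± 10.5 CPM in precursor-like and 31.7 ± 16.8 in interneuron-like nuclei and between 3.32 and 19.4 CPM in the other 8 classes.

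SK channels (Kcnn) carry the afterhyperpolarization that follows spikes. Kcnn2 was highest in astrocyte-like nuclei, at 824 ± 147 CPM in the hippocampus (log2 fold change 2.42, SE 0.13, adjusted p = 9.25e-21), followed by 615 ± 34.6 in CA1-like, 486 ± 52.4 in subiculum- or cortex-like, 423 ± 49.6 in interneuron-like, 286 ± 43.7 in CA3-like, 191 ± 11.97 in precursor-like and 113 ± 11.6 in dentate granule-like nuclei, and between 30.1 and 102 CPM in the other 4 classes. For Kcnn2 in the caudate putamen the astrocyte-like (425 ± 114 CPM) and eccentric (421 ± 48.9 CPM) levels overlapped, and it was 299 ± 39.6 in interneuron-like nuclei and between 23.2 and 181 CPM in the other 7 classes. Kcnn3 was at 165 ± 15.1 CPM in astrocyte-like and 112 ± 33.1 in subiculum- or cortex-like nuclei and between 3.42 and 37.7 CPM in the other 9 classes. Kcnn3 in the caudate putamen was at 216 ± 16.1 CPM in astrocyte-like, 179 ± 5.29 in D1-like, 153 ± 3.12 in D2-like and 104 ± 5.79 in eccentric nuclei and between 15.7 and 48.4 CPM in the other 6 classes. Kcnc4, a Kv3 gene named above, was highest in astrocyte-like nuclei of the caudate putamen at 13.4 ± 2.25 CPM, where Kcnq5 was lower than in the other classes (-2.12). Kcnt1, a sodium-activated channel, was at 84.3 ± 24.1 CPM in leptomeningeal-like nuclei (log2 fold change 3.08, SE 0.26, adjusted p = 9.12e-13), 43.1 ± 10.0 in subiculum- or cortex-like and 40.1 ± 7.84 in interneuron-like nuclei. Its relative Kcnt2 was at 601 ± 88.8 CPM in CA3-like, 507 ± 14.3 in dentate granule-like, 424 ± 96.1 in leptomeningeal-like, 341 ± 72.6 in interneuron-like and 299 ± 21.1 in CA1-like nuclei and between 25.8 and 157 CPM in the other 6 classes. Kcnt2 in the caudate putamen was at 400.3 ± 118 CPM in interneuron-like, 239.7 ± 11.8 in eccentric and 113 ± 16.9 in pericyte-like and 87.5 ± 18.7 in precursor-like nuclei, 28.2 ± 2.04 and 16.4 ± 2.15 in D2-like and D1-like nuclei and between 6.92 and 16.9 CPM in the other 4 classes. Cholinergic-like interneurons alone held 2096 ± 80.1 CPM of Kcnt2, against 82.4 ± 8.01 CPM in the other interneuron clusters, a contrast noticed in the data and not tested.

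Among inward rectifiers, the Kir3 genes make the channels opened by G proteins. Kcnj3 was at 860.3 ± 61.0 CPM in dentate granule-like, 590.0 ± 72.7 in subiculum- or cortex-like, 584 ± 30.6 in CA1-like, 436 ± 42.8 in interneuron-like and 301 ± 29.5 in CA3-like nuclei, 288 ± 53.5 in astrocyte-like and 285 ± 56.0 in precursor-like nuclei and between 56.3 and 146 CPM in the other 4 classes. Kcnj3 in the caudate putamen was at 328 ± 31.0, 245 ± 26.9 and 173 ± 40.7 CPM in interneuron-like, eccentric and precursor-like nuclei but 31.0 ± 10.9 and 14.8 ± 4.00 CPM in D1-like and D2-like nuclei and between 8.89 and 46.7 CPM in the other 5 classes. Kcnj6 was at 831 ± 32.5 CPM in dentate granule-like (log2 fold change 2.97, SE 0.21, adjusted p = 1.62e-14), 593 ± 46.2 in CA1-like, 543 ± 22.8 in CA3-like, 276 ± 35.9 in subiculum- or cortex-like and 258 ± 22.3 in interneuron-like nuclei and between 27.1 and 144 CPM in the other 6 classes. Kcnj6 in the caudate putamen was at 99.1 ± 20.3 CPM in interneuron-like and 43.0 ± 5.26 in precursor-like nuclei, at 1.05 ± 0.221 and 0.563 ± 0.349 CPM in D1-like and D2-like nuclei, and between 1.49 and 3.91 CPM in the other 6 classes. Kcnj9 was at 48.5 ± 3.20 and 40.8 ± 3.45 CPM in subiculum- or cortex-like and dentate granule-like nuclei, 24.4 ± 6.72 in microglia-like and 21.6 ± 3.32 in CA1-like nuclei and between 5.38 and 14.5 CPM in the other 7 classes. Kcnj9 in the caudate putamen was between 2.68 and 17.8 CPM in the 10 classes. Neurons of the 2 regions came from different libraries and were not tested against each other.

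The other inward rectifiers were low in neurons, with some in glia and vessels. Kcnj10, the Kir4.1 channel that buffers potassium, was at 112 ± 4.44 CPM in oligodendrocyte-like, 95.7 ± 12.7 in astrocyte-like and 55.2 ± 3.82 in precursor-like nuclei of the hippocampus, where the libraries of these 3 did not overlap, and between 0.807 and 16.0 CPM in the other 8 classes. In the same 3 classes of the caudate putamen it was at 91.1 ± 7.02, 66.4 ± 14.0 and 56.1 ± 4.09 CPM, where the last 2 overlapped, and it was between 0 and 9.56 CPM in the other 7 classes. Kcnj16, which joins Kcnj10 in mixed channels, was at 36.4 ± 6.00 CPM in precursor-like and 23.5 ± 2.40 in astrocyte-like nuclei and between 0.214 and 3.79 CPM in the other 9 classes, and at 41.2 ± 11.1 and 8.55 ± 1.26 CPM in those of the caudate putamen and between 0.142 and 3.099 CPM in the other 8 classes. Kcnj8, the Kir6.1 pore of the ATP-sensitive channel of vessels, was at 205 ± 36.3 CPM in pericyte-like nuclei (log2 fold change 8.14, SE 0.25, adjusted p = 2.81e-30), 14.6 ± 12.2 in endothelial-like nuclei and between 0.0834 and 1.11 CPM in the other 8 classes. In the hippocampus, where pericyte-like nuclei were too few for a class, it was at 32.2 ± 8.79 CPM in endothelial-like nuclei and between 0.106 and 2.07 CPM in the other 10 classes.

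Kir2 genes hold medium spiny neurons at their resting state. Kcnj2 was at 29.8 ± 6.42 CPM in microglia-like, 25.3 ± 14.3 in pericyte-like, 18.1 ± 2.26 in D1-like, 15.3 ± 3.03 in D2-like and 12.4 ± 3.77 in oligodendrocyte-like caudate putamen nuclei and between 3.88 and 7.98 CPM in the other 5 classes. In the hippocampus it was at 15.6 ± 9.21 CPM in microglia-like, 7.60 ± 3.44 in endothelial-like and 6.75 ± 2.42 in oligodendrocyte-like nuclei and between 0.723 and 5.72 CPM in the other 8 classes. Kcnj4 was at 29.7 ± 1.52 and 28.4 ± 1.67 CPM in D1-like and D2-like nuclei and between 8.58 and 24.6 CPM in the other 8 classes, and at 13.9 ± 0.583 CPM in dentate granule-like nuclei and between 2.28 and 7.46 CPM in the other 10 classes. Kcnj12 was at 83.8 ± 14.9 CPM in pericyte-like and 23.2 ± 3.42 in interneuron-like nuclei (log2 fold change 3.71, SE 0.41, adjusted p = 4.78e-09 for pericyte-like nuclei).

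Two-pore (K2P) channels give a leak current, and their highest classes are given gene by gene. Kcnk2 was at 1073 ± 341 CPM in leptomeningeal-like nuclei of the hippocampus (log2 fold change 4.23, SE 0.15, adjusted p = 1.45e-22), 176 ± 20.8 in astrocyte-like, 122 ± 15.3 in precursor-like and 67.3 ± 13.6 in CA1-like nuclei and between 8.78 and 45.9 CPM in the other 7 classes. Kcnk2 in the caudate putamen was at 456 ± 35.5 CPM in eccentric, 444 ± 36.0 in D2-like, 247 ± 50.9 in D1-like and 145 ± 15.0 in precursor-like nuclei and between 49.2 and 93.8 CPM in the other 6 classes. Kcnk1 was at 119 ± 3.36 and 128 ± 10.0 CPM in astrocyte-like nuclei of the hippocampus and caudate putamen, at 74.8 ± 3.28 CPM in dentate granule-like nuclei, between 18.1 and 34.8 CPM in the other 9 classes of the hippocampus and between 20.3 and 33.5 CPM in the other 9 classes of the caudate putamen. Kcnk9 was at 43.8 ± 4.48 and 38.0 ± 10.0 CPM in dentate granule-like and CA1-like nuclei, which overlapped, 23.6 ± 4.65 in subiculum- or cortex-like nuclei and between 3.72 and 11.6 CPM in the other 8 classes. Kcnk9 in the caudate putamen was at 33.4 ± 7.55 CPM in interneuron-like (log2 fold change 5.71, SE 0.17, adjusted p = 2.52e-29) and 17.1 ± 3.21 in eccentric nuclei and between 0 and 2.76 CPM in the other 8 classes.

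Several K2P genes marked glia. Kcnk13, the leak channel of resting microglia, was at 397 ± 44.4 and 345 ± 29.6 CPM in oligodendrocyte-like nuclei of the hippocampus and caudate putamen and at 310.0 ± 82.2 and 296 ± 25.0 CPM in microglia-like nuclei, and the libraries of both classes overlapped. Kcnk6 was at 62.7 ± 13.1 and 63.0 ± 12.7 CPM in microglia-like nuclei (log2 fold change 6.92, SE 0.22, adjusted p = 3.43e-28 in the hippocampus), against 8.71 CPM in endothelial-like nuclei and between 0.106 and 1.44 CPM in the other 9 classes. Kcnk12 was at 72.1 ± 17.9 and 58.6 ± 10.3 CPM there, with a hippocampal level of 37.5 ± 1.66 CPM in dentate granule-like nuclei. Kcnk10 was at 240.1 ± 36.3 and 244 ± 4.19 CPM in precursor-like nuclei. Kcnk4 was at 21.6 ± 2.53 CPM in CA3-like nuclei (log2 fold change 4.58, SE 0.20, adjusted p = 1.33e-22), above 7.23 CPM in the next class.

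Microglia depend on the factor PU.1, whose binding motif holds the letters GAGGAAGT. For 2 of these K2P genes the 250 bases before the gene start (RefSeq, GRCm38.p6) are shown, since both were measured in microglia-like nuclei, with each GAGGAA on either strand (the first 6 letters of the motif) in capitals. Kcnk12 is read from the minus strand of chr17:87797995-87798244 and Kcnk13 from the plus strand of chr12:99964249-99964498.
Kcnk12: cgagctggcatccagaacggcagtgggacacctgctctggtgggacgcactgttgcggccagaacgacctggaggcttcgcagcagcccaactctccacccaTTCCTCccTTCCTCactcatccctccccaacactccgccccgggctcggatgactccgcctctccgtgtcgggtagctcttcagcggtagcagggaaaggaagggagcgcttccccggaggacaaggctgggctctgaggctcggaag
Kcnk13: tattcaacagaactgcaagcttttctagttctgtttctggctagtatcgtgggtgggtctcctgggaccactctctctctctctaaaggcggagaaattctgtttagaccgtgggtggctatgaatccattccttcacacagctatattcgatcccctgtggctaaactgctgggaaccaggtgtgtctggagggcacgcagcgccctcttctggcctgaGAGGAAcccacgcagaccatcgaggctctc
The 6 letters occur 2 times in the first and 1 time in the second, and they occur in 23.3% of 32851 such windows. The whole GAGGAAGT is in neither window and in 2.44% of all. These matches describe letters and show no binding.

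Long genes can give more UMIs where introns are counted, so levels are also given per length, as a description. Whether introns were counted is not known here, and the relation of UMIs to length was not tested. Dividing by length raises short genes. Per 100 kb of gene, oligodendrocyte-like nuclei of the hippocampus held 4406 CPM of Kcna1, 699 of Kcna6 and 489.8 of Kcnq3, although Kcnq3 had the highest CPM of the 3. In dentate granule-like nuclei Kcnip4 was at 1163 CPM per 100 kb. In D1-like nuclei Kcna4 led at 1293 CPM per 100 kb, beside Kcnd2 at 1275. In microglia-like nuclei of the hippocampus Kcnk6 led at 593 CPM per 100 kb.

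The genes whose levels over the 21 class means of both regions were most like 4 channel genes were taken from 14502 genes, by Pearson correlation of log2(CPM + 1), as a description. The class means of a region share their libraries. Nearest to Kcnd2 were Gm47591 (r = 0.96), the glutamate receptor gene Gria3 (0.95) and Csmd1 (0.94). Nearest to Kcnq5 were Neto2, an auxiliary subunit of kainate receptors (0.95), Gap43, a protein of growing axons (0.93) and Camk4 (0.92). Nearest to Kcnj10 were Psat1 (0.93), Plekhb1 (0.93) and Myh6 (0.93), and nearest to Kcnj3 were Shisa6 (0.92), Miat (0.93) and Gm12296 (0.91).

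The pairs of hippocampal excitatory classes differed in many channel genes. Between CA1-like and dentate granule-like nuclei 34 of 72 (18.5% of all genes) were called, 11 higher in CA1-like and 23 lower. The largest rises toward CA1-like nuclei were Kcnc2 (log2 fold change 6.15), Kcnq5 (5.87), Kcns3 (4.47) and Kcnh7 (3.84), and Kcnc4, Kcnk13 and the 3 Kcng genes were lower (-2.80 for Kcnk13, -3.53 for Kcng1, -2.58 for Kcng2 and -2.88 for Kcng3). With doublets retained the log2 fold change of Kcnk13 was -0.57 and its call was lost (adjusted p = 0.263, with 1.71e-07 to 0.263 over 10 alternatives). Between CA3-like and dentate granule-like nuclei 30 of 72 (18.9% of all genes) were called, and between CA3-like and CA1-like nuclei 31 of 72 (13.1% of all genes). CA3-like nuclei were higher than CA1-like nuclei in Kcnc1 (2.59), Kcnk4 (2.56), Kcnd3 (2.13) and Kcng1 (2.12) and lower in Kcnk9 (-3.24), Kcnab3 (-2.14) and Kcnj12 (-1.76). Against dentate granule-like nuclei they were lower in Kcnk9 (-3.39), Kcnh7 (-3.08), Kcnj4 (-2.36) and Kcnc4 (-4.70) and higher in Kcns3 (4.68) and Kcnk4 (3.63).

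D1-like and D2-like medium spiny neurons were compared within libraries. Of the channel genes 3 of 75 (2.52% of all genes) were called, each lower in D2-like nuclei, where a call needed a log2 fold change of at least 1. At an unadjusted p under 0.05 and with no fold needed, 45 of the 75 channel genes and 6585 of 18013 genes differed. Kcnk13 was at 32.3 to 47.7 CPM in the 4 D1-like sums and 7.57 to 12.1 CPM in the D2-like sums (log2 fold change -2.14, SE 0.12, adjusted p = 0.000639). Kcng1 was at 19.6 ± 1.27 against 7.63 ± 1.14 CPM (log2 fold change -1.34, SE 0.06, adjusted p = 5.23e-11). Kcnj3 was low in both, at 20.9 to 44.0 CPM against 11.1 to 20.4 CPM (log2 fold change -1.01, SE 0.18, adjusted p = 0.04). Its log2 fold change was at the threshold of 1, and the call was lost under 8 alternatives, those that leave out a library included, where the log2 fold change was between -1.10 and -0.81. Named after their values were seen, Kcnk2 (log2 fold change 0.90, SE 0.09, adjusted p = 0.00902), Kcnd3 (log2 fold change 0.85, SE 0.02, adjusted p = 1.16e-14) and Kcnt2 (log2 fold change 0.81, SE 0.05, adjusted p = 6.7e-09) were higher in D2-like nuclei by less than the fold a call needed. Kcnq5 was at 4234 and 3895 CPM (young) and 4439 and 3718 CPM (old) in D1-like nuclei and 3369 and 3121 CPM and 3669 and 2885 CPM in D2-like nuclei. Microglial markers stood in D1-like and D2-like nuclei at a median of 0.359% and 0.386% of their microglia-like level, and oligodendrocyte markers at 0.848% and 0.895% of their oligodendrocyte-like level. Their part in the Kcnk13 difference was not tested.

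Between the regions, glia of the caudate putamen and of the hippocampus differed in many channel genes. Most differences had the same sign as the difference between the highest neuron classes. The channel genes called were 31 of 58 (13.4% of all genes) in oligodendrocyte-like, 10 of 42 (3.97% of all genes) in precursor-like, 41 of 63 (21.5% of all genes) in astrocyte-like and 5 of 41 (2.25% of all genes) in microglia-like nuclei. Tissue punch cannot be told apart from region, and the labels do not say how the libraries were divided over runs. The highest neuron class of the 2 regions differed in the same direction for 30 of 31, 9 of 10, 30 of 41 and 5 of 5 of them. Only signs were compared, with no size or test, so near ties count, such as Kcna6 at 37.8 and 35.5 CPM in the neurons. How often this held over all genes called is not given here. In the region where the glia were higher, the level was at or under the median share of the neuron markers for 19, 3, 12 and 4 of them, and above the neuron level for 3, 2, 9 and 0. The part of neuronal RNA in these differences was not tested.

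Kcnj6, a Kir3 gene high in hippocampal neurons, was the largest fall toward the caudate putamen in 2 glial classes: 40.2 ± 17.1 against 1.61 ± 1.34 CPM in oligodendrocyte-like nuclei (log2 fold change -4.57, SE 0.39, adjusted p = 7.79e-05), with -4.22 in astrocyte-like nuclei. In microglia-like nuclei its log2 fold change was -4.72, not called (adjusted p = 0.0842). Its hippocampal oligodendrocyte-like and astrocyte-like levels were 4.84% and 3.26% of the highest neuron level. Kcnq5, high in medium spiny neurons, was the reverse, at 33.5 ± 14.2 against 375 ± 62.6 CPM in oligodendrocyte-like nuclei (log2 fold change 3.49, SE 0.13, adjusted p = 1.79e-08), and its log2 fold changes in astrocyte-like and microglia-like nuclei were 3.48 and 2.96. In the caudate putamen these levels were 9.21%, 5.80% and 10.4% of the highest neuron level. Kcnh4 was also higher in the caudate putamen, with log2 fold changes of 4.00 in oligodendrocyte-like and 3.76 in astrocyte-like nuclei, where it stood at 11.8% and 8.27% of the highest neuron level. Kcnt1 was higher there in oligodendrocyte-like (3.81), microglia-like (3.35), precursor-like (1.55) and astrocyte-like (1.16) nuclei. Its levels were 31.9%, 43.4%, 21.7% and 30.1% of the highest neuron level, each above the median share of the neuron markers in that class (16.3%, 19.5%, 14.2% and 9.46%).

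Other named differences between regions were of low or middling genes. In oligodendrocyte-like nuclei Kcnc4 (-3.82), Kcng2 (-3.81) and Kcnk9 (-3.12) were lower and Kcng3 (2.76) higher in the caudate putamen, as log2 fold changes. In astrocyte-like nuclei Kcng4 (-3.30), Kcnj3 (-2.68) and Kcnk9 (-2.50) were lower and Kcnh5 (2.81) and Kcnj2 (2.41) higher. In microglia-like nuclei Kcnk10 (-3.17) and Kcnc2 (-1.76) were lower and Kcnk2 (2.47) higher. Precursor-like nuclei differed by less: Kcnc2 (-1.37), Kcnk13 (-1.31), Kcnt2 (-0.90) and Kcnb2 (-0.54) were lower and Kcnip2 (1.13), Kcna4 (1.11) and Kcnab1 (0.46) higher. Among precursor-like nuclei 5 of these 8 calls, Kcnt1 included, were lost under at least 1 of the settings that follow. Kcna4 missed the threshold without the first young or second old hippocampal library (0.0605 and 0.269), without any 1 of the 4 caudate putamen libraries (0.053 to 0.201) and with DESeq2 (0.406), with 5.44e-05 to 0.406 over 13 alternatives. Kcnt1 missed the threshold without the first old or second old hippocampal library (0.0673 and 0.0529), without the second young or second old caudate putamen library (0.0702 and 0.145) and with DESeq2 (0.0589), with 6.24e-06 to 0.145 over 13 alternatives. Kcnk13 missed the threshold with doublets retained (0.108), with 2.26e-07 to 0.108 over 13 alternatives. Kcnip2 missed the threshold without the second old hippocampal library (0.176), without the second young or second old caudate putamen library (0.0686 and 0.107) and with DESeq2 (0.178), with 7.05e-05 to 0.178 over 13 alternatives. Kcnab1 missed the threshold without the second old hippocampal library (0.104), without the second young or second old caudate putamen library (0.118 and 0.107) and with DESeq2 (0.0588), with 8.11e-05 to 0.118 over 13 alternatives. In oligodendrocyte-like nuclei Kcng3 missed the threshold without the first old or second old hippocampal library (0.182 and 0.0904), without the first young or second old caudate putamen library (0.117 and 0.119), with coarser clusters (0.0533) and with oligodendrocytes with the Enpp6-high clusters (0.0533), with 1.71e-05 to 0.182 over 13 alternatives. In microglia-like nuclei Kcnk10 missed the threshold without the first old or second old hippocampal library (0.0661 and 0.213), without the first young, second young or first old caudate putamen library (0.0602, 0.168 and 0.0731) and with coarser clusters (0.119), with 9.84e-09 to 0.213 over 12 alternatives, and Kcnc2 missed the threshold without the first old or second old hippocampal library (0.0573 and 0.0963) and without the second young or first old caudate putamen library (0.123 and 0.0817), with 8.32e-05 to 0.123 over 12 alternatives. In astrocyte-like nuclei Kcnj3 missed the threshold without the first young or first old hippocampal library (0.0561 and 0.0526) and without the first old caudate putamen library (0.0516), with 1.79e-07 to 0.0561 over 13 alternatives.

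With age, most of the calls among hippocampal neurons were in dentate granule-like nuclei. Of the channel genes 9 of 72 (4.37% of all genes) passed an adjusted p under 0.05, 8 lower and 1 higher at 21 months. The median log2 fold change was -0.03 over the channel genes tested and -0.01 over all genes. The exact permutation test of 2 libraries against 2 cannot give a p below 0.333, so the tests rest on edgeR's sharing of spread between genes. Kcnk13 was at 6.87 and 8.28 CPM at 3 months and 1.81 and 1.82 CPM at 21 months (log2 fold change -2.02, SE 0.16, adjusted p = 2.16e-05). Both old libraries were below both young ones, and the sums held 1322 UMIs in the young and 145 in the old libraries. In microglia-like and oligodendrocyte-like nuclei, the classes where Kcnk13 was highest, the log2 fold change was 0.52 (adjusted p = 0.434) and 0.31 (adjusted p = 0.188). The dentate granule-like level was 2.44% of the microglia-like level at 3 months and 0.585% at 21 months, while 10 microglial markers stood at a median of 0.324% and 0.278%.

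The other falls were smaller. Kcnq5 was at 33.0 and 35.0 CPM at 3 months and 18.3 and 17.7 CPM at 21 months (log2 fold change -0.87, SE 0.08, adjusted p = 4.98e-05). Kcnc2 was at 7.75 and 11.1 CPM at 3 months and 5.92 and 5.10 CPM at 21 months (log2 fold change -0.74, SE 0.17, adjusted p = 0.0349), and Kcnn3 at 41.7 and 50.3 CPM at 3 months and 29.4 and 29.3 CPM at 21 months (log2 fold change -0.60, SE 0.08, adjusted p = 0.00176). In each of these the old libraries lay below the young ones. Kcnh7 (-0.48), Kcnh5 (-0.48), Kcng3 (-0.49) and Kcnip2 (-0.26) also fell, as log2 fold changes. The one rise was Kcnip4, at 12637 and 11843 CPM at 3 months and 14515 and 13828 CPM at 21 months (log2 fold change 0.26, SE 0.06, adjusted p = 0.0393). Under 10 alternatives each, Kcnk13, Kcnq5 and Kcnn3 passed every time. Kcnc2 missed the threshold without the second young, first old or second old library (0.0634, 0.164 and 0.23) and with coarser clusters (0.0533), with 1.41e-09 to 0.23 over 10 alternatives. Kcnip4 missed the threshold without the first old or second old library (0.487 and 0.254) and with coarser clusters (0.0518), with 7.2e-13 to 0.487 over 10 alternatives. Values in brackets after a setting are adjusted p, here and below. The count of 9 turned on the libraries: it was 4 without the first old, 5 without the second old and 23 without the first young library. Without the second young library, the one that stood apart, 8 channel genes were called in this class. The clusters that made up the class differed with age. One led by Gm48530 and Gm6999 held 29.8% and 26.7% of the dentate granule-like nuclei at 3 months and 57.8% and 55.8% at 21 months, and one led by Vwa3a and Nek10 held 27.4% and 31.6% and then 9.48% and 10.7%. Another, led by Gm11728 and Chst9, went from 30.6% and 33.7% to 20.2% and 21.0%. The part of these shares in the calls with age was not tested.

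**Figure D2:**
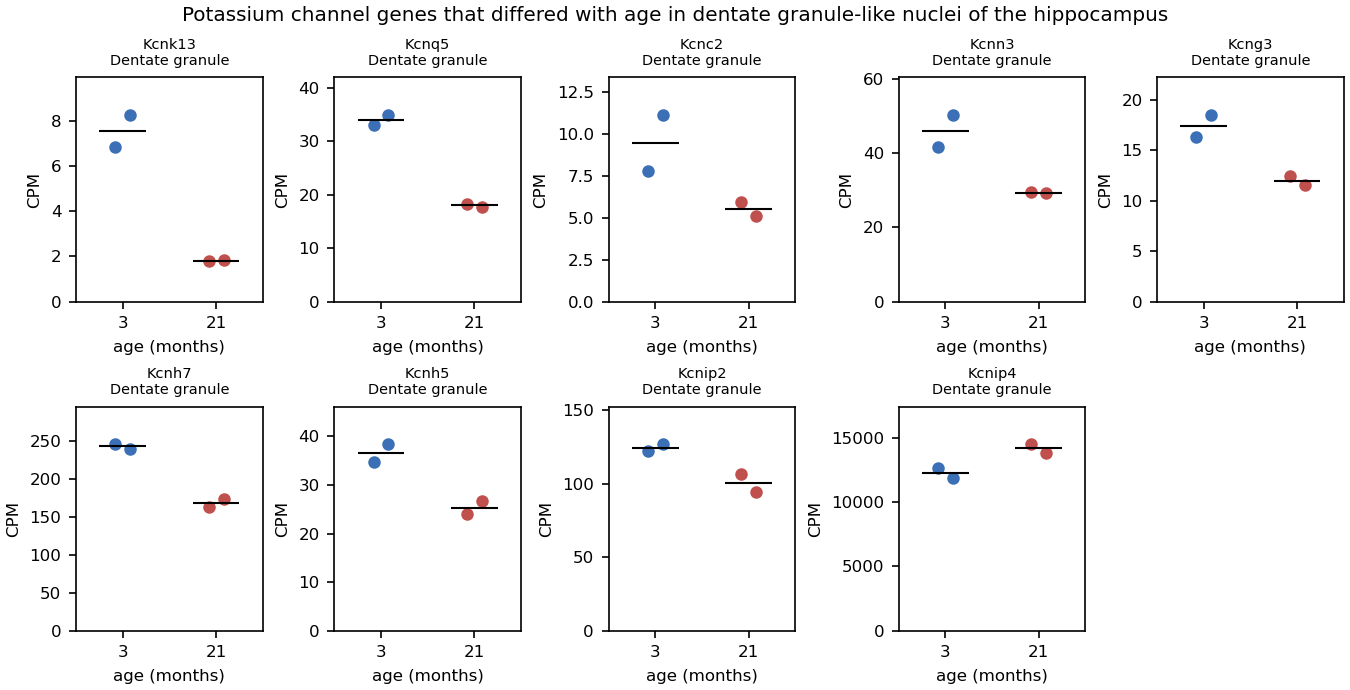
CPM of the 9 channel genes called with age in dentate granule-like nuclei, 1 panel a gene, with 1 point a library (2 young, 2 old), a line at the mean of each age and axes from 0. In 8 panels both old points lie below both young points, and in the Kcnip4 panel both lie above.

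Several of these genes are high in CA1-like nuclei and low in dentate granule-like nuclei, and CA1 markers moved in the same direction. The summed level of 5 CA1 markers in dentate granule-like nuclei was 15.2 and 22.2 CPM at 3 months and 12.8 and 10.4 CPM at 21 months, and 5 of 5 markers were lower in both old libraries than in both young ones. Of the hippocampal nuclei, CA1-like ones were 7.98% and 6.16% at 3 months and 3.095% and 2.98% at 21 months. As a share of the CA1-like level, the dentate granule-like level of Kcnq5 went from 2.58% to 1.37%, that of Kcnc2 from 1.93% to 1.13% and that of Kcnh7 from 9.41% to 6.52%. The median over the CA1 markers went from 2.52% to 1.92%. Of 11 interneuron markers, of the class where Kcnc2 was highest, 7 were lower and 0 higher in both old libraries (summed 2756 and 2260 CPM young, 2685 and 2881 CPM old), and their median went from 2.21% to 0.646% of the interneuron-like level. Of 5 CA3 markers, of the class where Kcnq5 was highest, 4 were lower and 0 higher (summed 398 and 329 CPM young, 378 and 415 CPM old), and their median went from 11.4% to 7.20% of the CA3-like level. No marker of these 3 lists was at 0 in dentate granule-like nuclei, and the part of RNA from these classes in the falls was not tested.

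**Figure D3:**
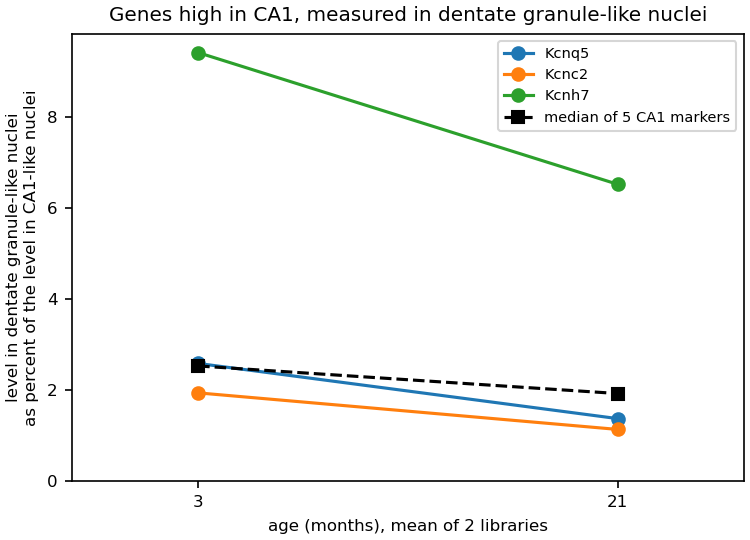
Level in dentate granule-like nuclei as a percent of the level in CA1-like nuclei (vertical axis) at 3 and 21 months (horizontal axis, mean of 2 libraries), for 3 channel genes and the median of 5 CA1 markers (dashed). All 4 lines slope down, and Kcnh7 starts highest at 9.41%.

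The other hippocampal neuron classes gave few calls with age. In CA1-like nuclei 0 of 64 (0.666% of all genes) passed with edgeR, and DESeq2 called 3. There 14 had an unadjusted p under 0.05 (1673 of all 14562 genes). Kcnk2, named after its values were seen, came nearest there, at 57.0 and 56.6 CPM at 3 months and 85.3 and 70.5 CPM at 21 months (log2 fold change 0.55, SE 0.11, adjusted p = 0.0504). In CA3-like nuclei 1 of 51 (0.287% of all genes) was called: Kcnh7, at 33.2 and 46.0 CPM at 3 months and 8.34 and 7.16 CPM at 21 months (log2 fold change -2.33, SE 0.22, adjusted p = 7.64e-05), a call that held in all 10 alternatives. Kcnh7 is a CA1 gene, and its CA3-like level went from 1.53% to 0.3% of the CA1-like level while the median CA1 marker went from 4.13% to 1.33% (3 of 5 markers lower in both old libraries, summed level 87.8 to 129 CPM young and 105 to 174 CPM old). Of 6 dentate granule markers in CA3-like nuclei 2 were lower in both old libraries (summed 44.6 and 104 CPM young, 29.9 and 22.5 CPM old), and their median went from 6.80% to 2.97% of the dentate granule-like level. Of 11 interneuron markers 6 were lower (summed 120.3 and 189 CPM young, 82.5 and 52.2 CPM old), with a median of 0.854% and then 0.130% of the interneuron-like level. The part of these markers' classes in the fall of Kcnh7 was not tested. In hippocampal interneuron-like nuclei 0 of 56 (0% of all genes) passed with edgeR, and DESeq2 called 0. There 8 had an unadjusted p under 0.05 (780 of all 12155 genes).

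The difference between the age effects of CA1-like and dentate granule-like nuclei was tested within libraries. Of the channel genes 3 of 72 (1.28% of all genes) differed, and for each of them the age effect was higher in CA1-like nuclei. For Kcnc2 it was higher by 0.71 on the log2 scale (SE 0.10, adjusted p = 0.00064), with CA1-like levels of 451 and 553 CPM at 3 months and 493 and 455 CPM at 21 months. This call held in all 9 alternatives. Kcnh5, an EAG gene, differed by 0.65 (SE 0.13, adjusted p = 0.019) and Kcnip2 by 0.38 (SE 0.08, adjusted p = 0.033). Kcnh5 missed the threshold without the second young, first old or second old library (0.0745, 0.361 and 0.0548) and with DESeq2 (0.126), with 3.53e-06 to 0.361 over 9 alternatives. Kcnip2 missed the threshold without the second young, first old or second old library (0.0754, 0.184 and 0.0742) and with DESeq2 (0.111), with 0.000335 to 0.184 over 9 alternatives. For Kcnk13 the difference was 2.23 and did not pass (adjusted p = 0.231), on CA1-like sums of 25 UMIs in the young and 7 in the old libraries. The count of 3 was 1 without the first old, 16 without the first young and 5 without the second young library.

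In the caudate putamen, the age calls among neurons in the main fit were in D2-like nuclei. Calls with the replicate number as a block, which differed, are given at the end. Of the channel genes 6 of 73 (4.66% of all genes) were called there, 3 higher and 3 lower at 21 months, with a median log2 fold change of 0.09 over the channel genes and 0.00385 over all genes. Kcna6, a Kv1 gene, was at 7.68 and 6.78 CPM at 3 months and 13.5 and 13.1 CPM at 21 months (log2 fold change 0.86, SE 0.10, adjusted p = 0.00979). Kcnc2 was at 5.26 and 7.60 CPM at 3 months and 14.0 and 13.4 CPM at 21 months (log2 fold change 1.05, SE 0.18, adjusted p = 0.0364), and Kcng3 at 16.8 and 17.5 CPM at 3 months and 22.7 and 22.2 CPM at 21 months (log2 fold change 0.36, SE 0.08, adjusted p = 0.0453). For these 3 both old libraries were above both young ones. The other 3 genes fell: Kcnn2 was at 172 and 216 CPM at 3 months and 119.6 and 113 CPM at 21 months (log2 fold change -0.76, SE 0.12, adjusted p = 0.0327), Kcna2 at 24.4 and 26.2 CPM at 3 months and 17.1 and 17.5 CPM at 21 months (log2 fold change -0.57, SE 0.08, adjusted p = 0.0184) and Kcnj2 at 17.6 and 18.3 CPM at 3 months and 12.4 and 13.1 CPM at 21 months (log2 fold change -0.52, SE 0.08, adjusted p = 0.0242). For each of them the young and old libraries did not overlap. The count of 6 was 2 without the first old, 1 without the second old and 1 without the second young library. Kcna6 missed the threshold without the second young library (0.0508), with 1.14e-05 to 0.0508 over 11 alternatives. Kcnc2 missed the threshold without the first old or second old library (0.164 and 0.161), with 8.6e-05 to 0.164 over 11 alternatives. Kcng3 missed the threshold without any 1 of the 4 caudate putamen libraries (0.119 to 0.151), with DESeq2 (0.0655) and with a gene length offset (0.0542), with 0.0133 to 0.151 over 11 alternatives. Kcnn2 missed the threshold without the second young, first old or second old library (0.053, 0.14 and 0.205), with 3.53e-06 to 0.205 over 11 alternatives. Kcna2 missed the threshold without the second young, first old or second old library (0.0756, 0.0583 and 0.0534), with 0.000151 to 0.0756 over 11 alternatives. Kcnj2 missed the threshold without any 1 of the 4 caudate putamen libraries (0.0521 to 0.102), with 0.000867 to 0.102 over 11 alternatives.

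In D1-like neurons 0 of 76 (1.34% of all genes) passed with edgeR, and DESeq2 called 4. There 17 had an unadjusted p under 0.05 (3627 of all 18391 genes). The same 6 genes had log2 fold changes of the same sign there: 0.75 for Kcna6 (adjusted p = 0.0843), 1.47 for Kcnc2, 0.31 for Kcng3, -0.53 for Kcnn2, -0.47 for Kcna2 and -0.28 for Kcnj2. The difference between the age effects of D2-like and D1-like nuclei passed for 0 of 76 (0.176% of all genes), and DESeq2 called 0. Past an unadjusted p of 0.05 were 9 (1134 of all 18715 genes). The 2 classes were therefore not shown to differ. In interneuron-like nuclei 0 of 66 (0.00703% of all genes) passed, and DESeq2 called 0. There 9 had an unadjusted p under 0.05 (1131 of all 14225 genes). Oligodendrocyte markers, beside which Kcna6 is high, were also higher in old D2-like nuclei for 7 of 9 (summed level 145 to 148 CPM young, 150.0 to 166 CPM old, none at 0). Kcna6 stood there at 3.92% and 7.21% of its oligodendrocyte-like level, and the median marker at 0.773% and 1.02%. Kcnc2 stood in D2-like nuclei at 1.24% (young) and 2.65% (old) of its interneuron-like level, and the median interneuron marker at 12.4% and 12.1%. Of its precursor-like level it stood at 13.8% and 29.4%, and the median precursor marker at 0.370% and 0.362%. The part of RNA from these classes in the rises of Kcna6 and Kcnc2 was not tested.

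**Figure D4:**
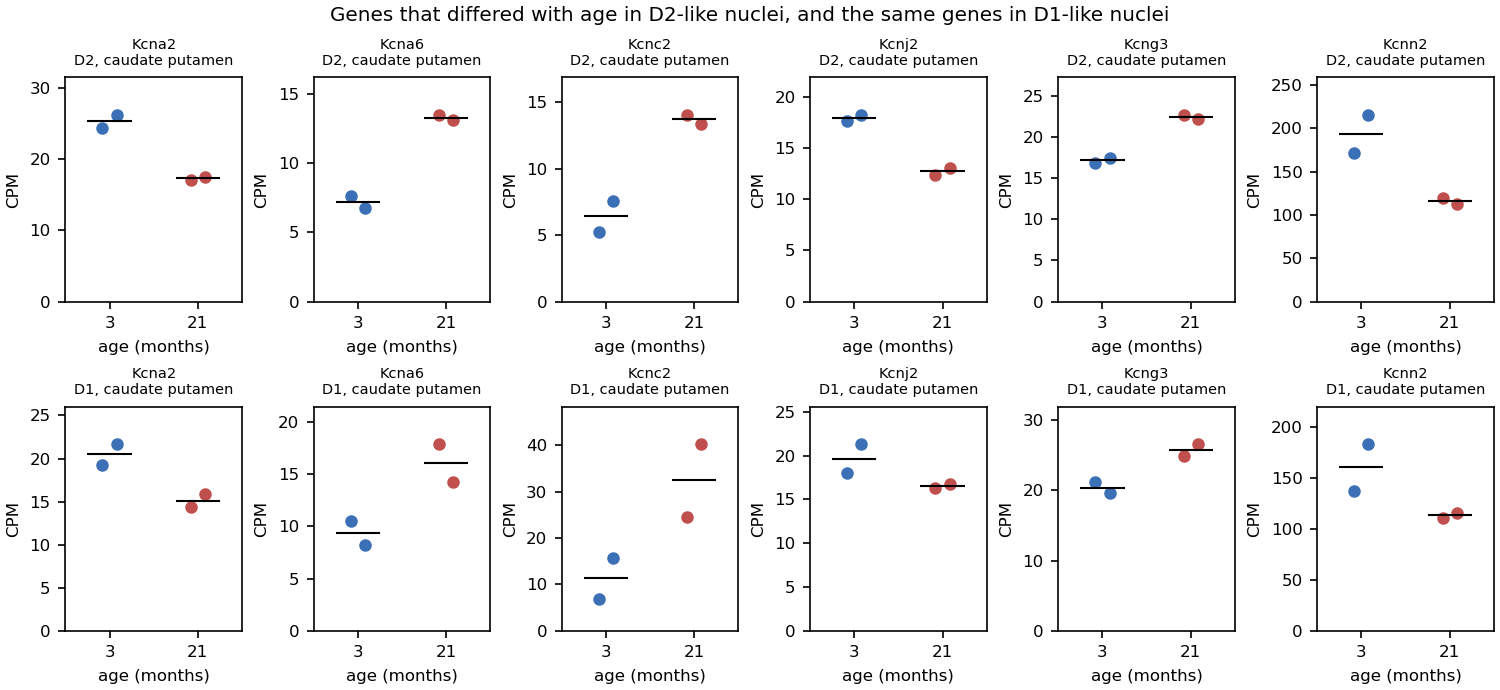
CPM of the 6 channel genes called with age in D2-like nuclei (top row) and of the same genes in D1-like nuclei (bottom row), 1 point a library, lines at the mean of each age, axes from 0. In the top row the young and old points of every gene are apart. In the bottom row Kcna6, Kcnc2 and Kcng3 are again higher and Kcnn2, Kcna2 and Kcnj2 lower at 21 months, with none called.

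In glia, each class had at most 3 channel genes called with age in a region. In hippocampal oligodendrocyte-like nuclei it was 1 of 58 (1.50% of all genes): Kcnab1, at 434 and 397 CPM at 3 months and 607 and 579 CPM at 21 months (log2 fold change 0.56, SE 0.11, adjusted p = 0.0252). Both old libraries were above both young ones. Kcnab1 missed the threshold without the second young, first old or second old hippocampal library (0.0817, 0.273 and 0.152), without the first young or second young caudate putamen library (0.0573 and 0.056), with doublets retained (0.415) and with the region fitted alone (0.0602), with 3.61e-05 to 0.415 over 16 alternatives. With the clusters high in Enpp6 added to the class its log2 fold change was 0.51. Of the CA1 markers, which mark the class where Kcnab1 was highest, 3 of 5 were lower in both old libraries (summed 190.1 and 185 CPM young, 36.3 and 52.5 CPM old). In caudate putamen oligodendrocyte-like nuclei the log2 fold change of Kcnab1 was 0.32, not called. In hippocampal precursor-like nuclei 1 of 42 (0.565% of all genes) was called: Kcnc2, at 71.7 and 100.2 CPM at 3 months and 165 and 129 CPM at 21 months (log2 fold change 0.81, SE 0.19, adjusted p = 0.043). Its old libraries lay above the young ones here, while in dentate granule-like nuclei they lay below. Kcnc2 missed the threshold without the first old or second old hippocampal library (0.469 and 0.0572), without the first old or second old caudate putamen library (0.0527 and 0.0518), with DESeq2 (0.22), with a gene length offset (0.103) and with the region fitted alone (0.125), with 0.00243 to 0.469 over 15 alternatives. Of 6 subiculum or cortical neuron markers 3 were higher in both old precursor-like sums (summed 623 and 558 CPM young, 823 and 738 CPM old, none at 0). Of 11 interneuron markers, of the class where Kcnc2 was highest, 1 was higher and 3 were lower in both old sums (summed 6244 and 5389 CPM young, 6165 and 6620 CPM old). Of 5 CA1 markers 3 were lower and of 5 CA3 markers 1 was, and none of either list was higher in both old sums. Their part in the rise was not tested. In caudate putamen precursor-like nuclei Kcnc2 was at 65.5 and 46.7 CPM at 3 months and 41.8 and 32.5 CPM at 21 months (log2 fold change -0.53, SE 0.24, adjusted p = 0.604), not called.

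In hippocampal astrocyte-like nuclei 3 of 63 (0.748% of all genes) were called, each lower at 21 months, Kcnq5 and Kcnh7 among them. Kcnq5 was at 26.4 and 36.6 CPM at 3 months and 12.1 and 15.5 CPM at 21 months (log2 fold change -1.17, SE 0.22, adjusted p = 0.0441). Kcnh7 was at 50.04 and 75.6 CPM at 3 months and 31.3 and 29.4 CPM at 21 months (log2 fold change -0.98, SE 0.18, adjusted p = 0.0222). For these 2 genes both old libraries lay below both young ones. Both were higher in a hippocampal neuron class than here, and neuron markers did not all move one way. Of 6 dentate granule markers 4 were lower in both old libraries (summed 134 to 305 CPM young, 87.6 to 95.8 CPM old), and of 11 interneuron markers 4 were (summed 88.2 to 166 CPM young, 76.9 to 93.1 CPM old). Of 5 CA3 markers, of the class where Kcnq5 was highest, 3 were lower (summed 104 to 105 CPM young, 88.6 to 95.2 CPM old). Of 5 CA1 markers, of the class where Kcnh7 was highest, 2 were lower and 3 higher (summed 103 to 112 CPM young, 124 to 148 CPM old). The young astrocyte-like level of Kcnq5 was 121% of its dentate granule-like level. No marker was at 0 over the 4 libraries, and their part in the falls was not tested. Kcnq5 missed the threshold without the second young, first old or second old hippocampal library (0.111, 0.469 and 0.165), without the first young or second young caudate putamen library (0.096 and 0.109), with coarser clusters (0.0813), with a gene length offset (0.0871) and with the region fitted alone (0.0553), with 3.8e-13 to 0.469 over 15 alternatives. Kcnh7 missed the threshold without the second young, first old or second old hippocampal library (0.0849, 0.305 and 0.296), without the second young caudate putamen library (0.0537), with doublets retained (0.0501) and with the region fitted alone (0.0762), with 1.38e-09 to 0.305 over 15 alternatives.

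Over all channel genes tested, most log2 fold changes with age were below 0 in 3 hippocampal glial classes. The median log2 fold change was -0.68 in oligodendrocyte-like (9 of 58 above 0), -0.64 in astrocyte-like (14 of 63 above 0) and -0.96 in microglia-like nuclei (4 of 41 above 0). Over all genes it was -0.05, -0.00206 and -0.03. In the same classes of the caudate putamen the medians over channel genes were 0.18, -0.08 and -0.03, and each turned sign when 1 library was left out. Without the first old caudate putamen library they were 0.34, 0.11 and 0.15, and without the second old one -0.10, -0.28 and -0.22. The astrocyte-like median was also above 0 without the first young caudate putamen library (0.00136), and the microglia-like one without the second young caudate putamen (0.14) or second young hippocampal library (0.12). The hippocampal medians rested on the second young library: without it they were -0.17 (17 of 58 above 0), -0.18 (18 of 60) and 0.16 (26 of 43). Summed over the 93 genes, the microglia-like level was 2930 and 10181 CPM at 3 months and 3417 and 3572 CPM at 21 months. The oligodendrocyte-like sum was 4291 and 5334 CPM at 3 months and 4698 and 4428 CPM at 21 months. In both classes the first young library lay below both old ones and the second young library above them. The astrocyte-like sum was 4701 and 5440 CPM at 3 months and 4343 and 4099 CPM at 21 months, with both young libraries above both old ones. Dentate granule markers moved with this median: 4 of 6 were lower in both old oligodendrocyte-like sums (summed 350.1 and 571 CPM young, 347 and 349.7 CPM old). The second young library held the highest dentate granule marker level in oligodendrocyte-like and astrocyte-like nuclei, and the part of neuronal RNA or of remaining doublets was not tested.

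In microglia-like nuclei no channel gene was called with age in either region with edgeR or DESeq2. The counts were 0 of 41 (0.0291% of all genes) in the caudate putamen and 0 of 41 (0% of all genes) in the hippocampus. An unadjusted p under 0.05 was found for 5 in the caudate putamen (581 of all 10308 genes). In the hippocampus 10 had one (1061 of all 10308 genes). Kcnj12, an inward rectifier named after its values were seen, was at 1.45 and 2.57 CPM at 3 months and 19.9 and 22.1 CPM at 21 months in the caudate putamen (log2 fold change 3.17, SE 0.53, adjusted p = 0.0663) and at 1.73 and 2.13 CPM at 3 months and 21.3 and 22.9 CPM at 21 months in the hippocampus (log2 fold change 3.32, SE 0.61, adjusted p = 0.141). Its counts were small. In the caudate putamen 6 UMIs in the young and 43 in the old sums gave a ratio of old to young of 9.17 (95% exact interval 3.89 to 26.4, counting error only). In the hippocampus the ratio was 11.0 (95% exact interval 3.78 to 43.6). Both old libraries were above both young ones in each region.

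Caudate putamen astrocyte-like nuclei had 1 of 63 (0.634% of all genes) called: Kcnn2, at 563 and 471 CPM at 3 months and 316 and 349 CPM at 21 months (log2 fold change -0.63, SE 0.11, adjusted p = 0.0174). In hippocampal astrocyte-like nuclei it was at 989 and 908 CPM at 3 months and 714 and 687 CPM at 21 months (log2 fold change -0.38, SE 0.10, adjusted p = 0.117), lower in both old libraries but not called. In the caudate putamen Kcnn2 missed the threshold without the first old or second old hippocampal library (0.071 and 0.0615) and without the first young, first old or second old caudate putamen library (0.0914, 0.116 and 0.0625), with 7.96e-07 to 0.116 over 15 alternatives. In precursor-like nuclei 0 of 42 (0.134% of all genes) passed with edgeR, and DESeq2 called 0. There 10 had an unadjusted p under 0.05 (812 of all 10448 genes). In oligodendrocyte-like nuclei 0 of 58 (1.17% of all genes) passed with edgeR, and DESeq2 called 0. There 6 had an unadjusted p under 0.05 (1577 of all 13606 genes). The difference of the age effects between regions passed for 0 of 58 (0% of all genes) in oligodendrocyte-like, 0 of 42 (0% of all genes) in precursor-like, 0 of 63 (0% of all genes) in astrocyte-like and 0 of 41 (0% of all genes) in microglia-like nuclei. At an unadjusted p under 0.05 these were 13, 6, 9 and 4 genes, and DESeq2 called 0, 0, 1 and 0. Over all genes that unadjusted p was met by 1034 of 13606, 592 of 10448, 842 of 14977 and 457 of 10308. With edgeR no glial age effect was therefore shown to differ between the hippocampus and the caudate putamen.

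**Figure D5:**
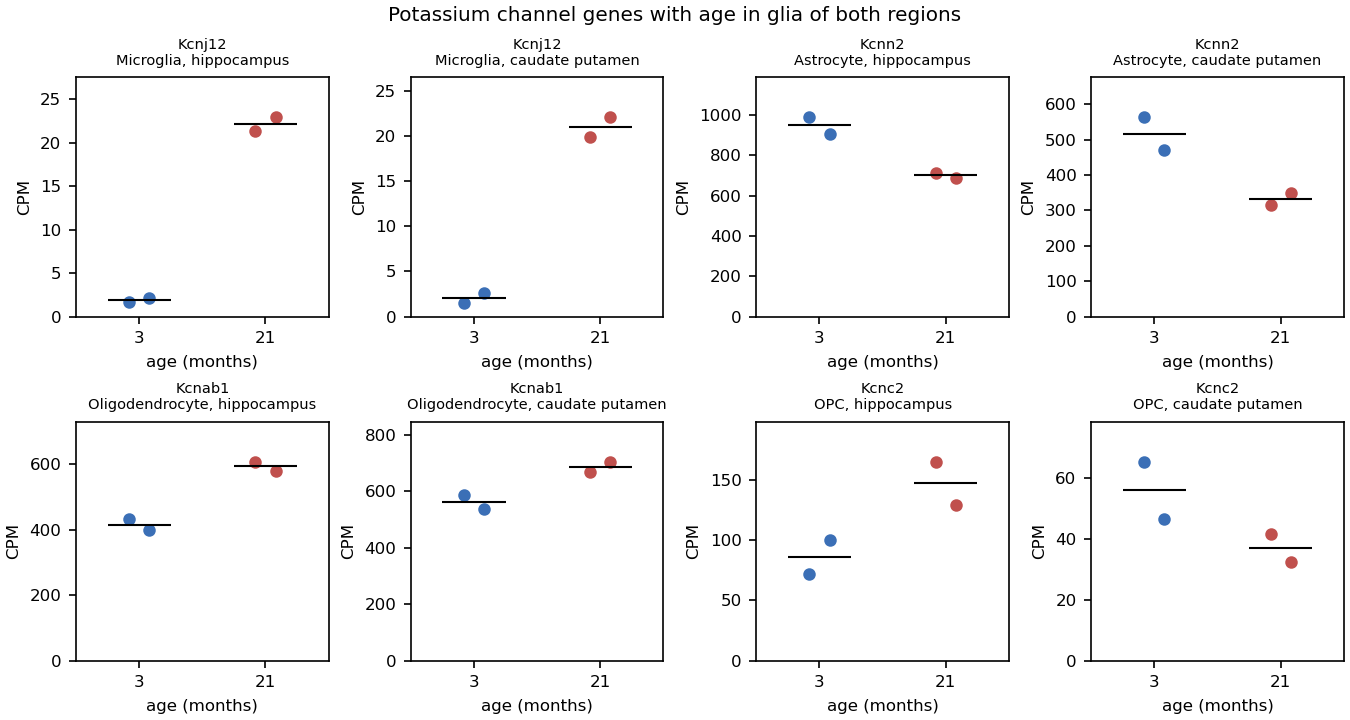
CPM of Kcnj12 in microglia-like, Kcnn2 in astrocyte-like, Kcnab1 in oligodendrocyte-like and Kcnc2 in precursor-like nuclei of both regions, 1 point a library, lines at the mean of each age, axes from 0. Old points of Kcnj12 lie above the young ones and those of Kcnn2 below them in both regions, while Kcnc2 is higher at 21 months in the hippocampus and lower in the caudate putamen.

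Genes that work with potassium channels were followed beside them: 14 partner genes, 4 HCN channels (which pass sodium and potassium on hyperpolarization), 5 subunits of the sodium-potassium pump and 4 cotransporters that carry chloride with potassium. With age, 2 of these 27 (4.37% of all genes) passed in dentate granule-like nuclei, both lower, among them Cntn2, which anchors Kv1 channels beside the node (log2 fold change -0.90, SE 0.21, adjusted p = 0.0363). Dpp10, a Kv4 partner, was higher in old hippocampal precursor-like nuclei (log2 fold change 0.45, SE 0.11, adjusted p = 0.0473) and in old caudate putamen oligodendrocyte-like nuclei (log2 fold change 1.23, SE 0.22, adjusted p = 0.0198). Slc12a5, the chloride cotransporter of neurons, was lower in old hippocampal oligodendrocyte-like nuclei (log2 fold change -1.17, SE 0.26, adjusted p = 0.049). Cntnap2, which holds Kv1 channels at the axon, was lower in old hippocampal astrocyte-like nuclei (log2 fold change -1.04, SE 0.17, adjusted p = 0.0222). In these glial classes, in the order named, 0.565%, 1.17%, 1.50% and 0.748% of all genes were called. In the other classes tested for age none of the 27 passed. How the calls of these partner genes changed when a library was left out is not given here.

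Some channel genes lie side by side in the genome (GRCm38), and neighbours need not share a pattern. Kcna1 (chromosome 6, 126640397 to 126646384) and Kcna6 (126708329 to 126740674) were both highest in oligodendrocyte-like nuclei of both regions. Kcnj9 and Kcnj10, 11.9 kb apart on chromosome 1, were highest in a neuron class and in a glial class of the hippocampus. Kcnj16 and Kcnj2, 38.2 kb apart on chromosome 11, were highest in precursor-like and microglia-like nuclei. Kcnmb1 lies inside Kcnip1 on chromosome 11 in the annotation used, on the opposite strand. Only reads counted without regard to strand could be shared between them.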

How the data were processed

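Nuclei of 8 libraries were counted with 10x Genomics v3.1 chemistry. The deposited matrices hold raw UMI counts for 32285 genes. They were made with Cell Ranger 6.1.2 (7 libraries) or 7.0.0 (the second young caudate putamen library), per the file headers, while the submitters' processing notes name Cell Ranger 4.0.0 and mm10. Whether introns were counted is not given in the sources used here, and a difference between versions could move intron-rich genes in that 1 library.

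Barcodes with under 500 genes (1307) or over 5% mitochondrial counts (3) and 9026 doublets called by Scrublet with exact neighbours were removed. Each region was clustered with scanpy 1.11.5 (3000 variable genes without the channel genes, 40 principal components, 20 neighbours, Leiden resolution 1). A cluster was named from at least 3 markers, each at 10 CPM or more and a log2 fold of 1, under a rule that went through 9 versions after clusters were seen. Unnamed clusters, 7.32% to 17.2% of a library's nuclei, were left out. The members and lists were chosen with earlier results of these data known.

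Counts were summed per class and library, given as CPM of the class's total, and tested with edgeR 4.0.16 (quasi-likelihood, TMM, filterByExpr) with Benjamini-Hochberg adjustment over all genes tested. Of the 93 channel genes 82 entered at least 1 comparison. Tests between classes had library as a block, and glia of both regions shared 1 fit of 8 libraries. Alternatives were DESeq2 1.42.0, no filter on low counts, retained doublets, a Leiden resolution of 0.5, a gene length offset, a replicate block, a region fitted alone and leaving out each library, and, chosen after seeing the data, another clustering seed and classes with certain clusters added or left out. The text names every channel gene called with age (past 8 in a class, the 4 largest each way), the 4 largest each way between regions and between classes that do not overlap, and 31 genes listed by role. Some genes that this rule names are not reported here. On simulated counts for the dentate granule age test, 8% of changes of 0.5 (log2), 79% of those of 1 and 100% of those of 2 were called, with 4 of 17802 unchanged genes. For the hippocampal microglia age test these shares were 4%, 44% and 96%. For the D2-like minus D1-like age difference they were 0%, 26% and 98%. The simulation gave every gene the same fixed spread and changed only well-counted genes. Positions and lengths came from an annotation of GRCm38 that matched all 93. The rule left out 5 other names.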

Additional observations from a re-analysis of the deposited data

Results flagged for a closer look

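The age effects of CA1-like and dentate granule-like nuclei differed past an adjusted p of 0.05 (edgeR, class by age within libraries) for 3 channel genes. Each value is the age effect in CA1-like minus that in dentate granule-like nuclei, on the log2 scale. It was 0.71 for Kcnc2, 0.65 for Kcnh5 and 0.38 for Kcnip2. Kcnc2 passed under all 9 alternatives tried. Values in brackets are adjusted p. Kcnh5 missed the threshold without the second young, first old or second old library (0.0745, 0.361 and 0.0548) and with DESeq2 (0.126), with 3.53e-06 to 0.361 over 9 alternatives. Kcnip2 missed the threshold without the second young, first old or second old library (0.0754, 0.184 and 0.0742) and with DESeq2 (0.111), with 0.000335 to 0.184 over 9 alternatives. In CA1-like nuclei none of the 3 passed for age alone: the age effect was 0.01 for Kcnc2, 0.17 for Kcnh5 and 0.15 for Kcnip2. In dentate granule-like nuclei it was -0.74, -0.48 and -0.26, each called.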

How the results depend on the processing

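Counts of channel genes called, summed over the classes of a comparison, depended on the setting for age more than for class. The classes of the hippocampus (446 calls), their pairs (95), the classes of the caudate putamen (369) and the regions in glia (87) stayed within 1.5 times of these under every setting run, with 408 to 461, 85 to 95, 348 to 362 and 63 to 107 calls when 1 library was left out. With age, hippocampal neurons had 10 calls, hippocampal glia 5, caudate putamen neurons 6 and caudate putamen glia 1. With no filter on low counts these were 29, 49, 18 and 12, where more genes were tested. DESeq2 gave 10 in caudate putamen neurons, retained doublets 10 there, 11 in hippocampal and 2 in caudate putamen glia, DESeq2 2 in the latter, coarser clusters (a resolution of 0.5) 3 in hippocampal glia, and fitting a region alone 1 in hippocampal and 4 in caudate putamen glia. Leaving out 1 library gave 5 to 34 in hippocampal neurons, 0 to 73 in hippocampal glia, 1 to 5 in caudate putamen neurons and 0 to 10 in caudate putamen glia. The highest of these, 34 and 73, came without the first young hippocampal library, and the lone young library is then assumed to vary like the old ones. Without the first old hippocampal library they were 5 and 0, and without the second 6 and 0. Hippocampal glia had 3 without the second young hippocampal, and 3 and 2 without the first and second young caudate putamen library. Caudate putamen neurons had 2 without the first old, 1 without the second old and 1 without the second young one. Caudate putamen glia had 10 without either young hippocampal library, and 0 without the first young or the first old library of their own. Between D2-like and D1-like nuclei 3 genes were called, 2 to 4 with 1 library left out and 5 without D1-like clusters led by Reln, an alternative chosen after seeing the data, as were adding unnamed Enpp6-high clusters to the oligodendrocytes and another clustering seed, which moved no count past 1.5 times. The D2-like minus D1-like age effects gave 0 calls, 2 with no filter and 0 to 2 with 1 library left out (2 without the first old and 1 without the second young one). The region by age term in glia gave 0, 1 with DESeq2, 1 with doublets retained, 15 with no filter and 0 to 28 with 1 library left out (28 and 1 without the first and the second young hippocampal library and 2 without the first old caudate putamen one). The CA1-like minus dentate granule-like age effects gave 3, 10 with doublets retained, 13 with no filter and 1 to 16 with 1 library left out (1 without the first old, 16 without the first young and 5 without the second young one). Of single named genes, 1418 values kept direction and side of the threshold, 134 lost the call and 1 reversed: Kcnh7 in eccentric medium spiny-like nuclei, 0.94 with a resolution of 0.5. Most of these values were of class or region calls. For calls with age and a library left out, more values lost the call than kept it. The causes were not tested. With another seed caudate putamen microglia-like nuclei, with doublets retained caudate putamen oligodendrocyte-like nuclei, and with doublets retained or coarser clusters hippocampal leptomeningeal-like nuclei gave no class, so these settings gave no value there. Low classes limit depth: hippocampal precursor-like nuclei numbered 99 to 274 and CA3-like nuclei 83 to 318 a library.

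Libraries share replicate numbers across ages, but the labels tie them to no common animal, batch or day. Deviations of same-numbered libraries from their group means correlated between -0.26 and 0.13 over 9 hippocampal and between 0.0808 and 0.66 over 8 caudate putamen classes. With the replicate number as a block, hippocampal neurons had 15 calls with age, hippocampal glia 10, caudate putamen neurons 32 (16 each in D1-like and D2-like nuclei) and caudate putamen glia 3, and the regions 62 and region by age 1. Of the named region calls 9 missed the threshold with it: Kcnk13, Kcnb2, Kcnab1, Kcna4, Kcnip2 and Kcnt1 in precursor-like, Kcnj3 in astrocyte-like and Kcnk10 and Kcnc2 in microglia-like nuclei. In that fit the region difference was the one at the first replicate number, not the mean over both. The 62 and the 9 are therefore not of the same contrast as the main region calls. A D2-like cluster of 490 nuclei held 257 and 228 nuclei of the first young and first old libraries and 3 and 2 of the second ones. A D1-like cluster of 2551 nuclei held 1224 and 1096 against 163 and 68, and an interneuron-like one of 344 held 205 and 101 against 25 and 13. With no library block, class calls were 437 in the hippocampus and 376 in the caudate putamen, those of hippocampal pairs 93 and those of D2-like against D1-like nuclei 2.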
